A study of Mus musculus with 4 samples.

Results

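The genes described here are 9 members of the JAK-STAT pathway and its feedback loop: the kinase gene Jak2, the transcription factor genes Stat2, Stat3, Stat4, Stat5a, Stat5b and Stat6, and the inhibitor genes Socs1 and Socs3. They were chosen by name, with earlier results of these data known. All 9 were found among the 49492 gene rows of the count table. Cytokines bind receptors that have no kinase of their own and rely on attached JAK kinases. The JAKs phosphorylate the receptor and then the STAT proteins docked on it, and STAT dimers enter the nucleus and bind DNA. SOCS genes are among the direct STAT targets, and their products block the kinase or the receptor, which closes a negative feedback loop. In the testis such signals reach macrophages, Leydig and Sertoli cells and germ cells, and Stat4 is known as a gene of haploid male germ cells.

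The data are RNA sequencing of 4 libraries of testis from male C57BL/6J mice, with 2 libraries in each of 2 groups. Every mouse is labelled as having received LPS, the endotoxin of bacteria that sets off innate immune responses. One group carried a Spry1 knockdown by a short hairpin (shSpry1), Spry1 being a feedback inhibitor of receptor tyrosine kinases, and the other carried a control hairpin (shControl, wild-type genotype). The sources used here do not give the age of the mice, the dose and time of LPS, the delivery of the hairpin or the cell types it reached. Nothing says whether replicates came from separate mice, so the spread that p-values measure is that between these libraries and may be technical. In the count table the headings are LPS and NC. Here NC was taken for the control hairpin and LPS for the knockdown, but this match rests on the names alone, and all 4 titles mention LPS. If the headings mean LPS against no LPS, every difference below belongs to that contrast. Groups are named by these headings, LPS columns and NC columns, with log2 fold changes positive where the LPS columns were higher. Levels are CPM, which are counts scaled to a common library size with TMM factors. The word called stands for an adjusted p under 0.05 in the quasi-likelihood test of edgeR, adjusted by the Benjamini-Hochberg method over 20855 tested genes.

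Libraries held 17612342 to 22451132 counts, so that 0 counts in a library allow up to 0.134 to 0.170 CPM, counting error only. Spry1, the targeted gene, was at 1.32 and 0.952 CPM in the LPS columns against 2.04 and 2.00 CPM in the NC columns, a log2 fold change of -0.82 ± 0.28 (SE; edgeR adjusted p = 0.0212). DESeq2 did not call it (adjusted p = 0.287), nor did edgeR without LPS replicate 2, NC replicate 1 or NC replicate 2 (edgeR adjusted p = 0.183, 0.0952 and 0.0653), and Spry1 shares 710 exon bases with the opposite-strand model Gm42922. Germ cell markers of the labelled tissue were abundant: 11 elongating spermatid markers together held 18138 to 25312 CPM in the 4 libraries.

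The promoters show where the members differ in STAT-related letters. The 250 bases upstream of the RefSeq start (GRCm38.p6) were searched on both strands for the gamma-activated site TTCNNNGAA, the palindrome bound by most STAT dimers, for its longer-spaced form TTCNNNNGAA, favoured by STAT6, and for GAAANNGAAA, the core of the interferon-stimulated response element bound by complexes that hold STAT2 and IRF9. All 9 members had at least 1 window in the RefSeq table, 12 windows in all, and 4 members held a match. The 3 below are shown because Socs3 and Stat2 had the largest fold changes of the set and Socs1 is the second feedback gene. Capitals mark the matches.
Socs3 (chr11:117969367-117969616, minus strand): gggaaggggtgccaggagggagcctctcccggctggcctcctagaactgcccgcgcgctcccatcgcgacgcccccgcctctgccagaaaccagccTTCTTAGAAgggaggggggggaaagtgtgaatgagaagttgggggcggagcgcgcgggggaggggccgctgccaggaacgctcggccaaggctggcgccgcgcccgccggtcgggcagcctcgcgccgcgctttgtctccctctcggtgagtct
Stat2 (chr10:128270248-128270497, plus strand): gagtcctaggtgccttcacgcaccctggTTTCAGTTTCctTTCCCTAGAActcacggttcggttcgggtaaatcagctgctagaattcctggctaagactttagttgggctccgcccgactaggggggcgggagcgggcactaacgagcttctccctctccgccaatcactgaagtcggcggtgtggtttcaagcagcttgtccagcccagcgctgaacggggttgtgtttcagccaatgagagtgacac
Socs1 (chr16:10785537-10785786, minus strand): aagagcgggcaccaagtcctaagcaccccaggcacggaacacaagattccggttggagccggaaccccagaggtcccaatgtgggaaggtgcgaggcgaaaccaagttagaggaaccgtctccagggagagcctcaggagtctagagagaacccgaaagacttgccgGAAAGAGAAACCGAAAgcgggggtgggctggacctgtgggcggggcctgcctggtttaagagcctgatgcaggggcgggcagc
The Socs3 window held a gamma-activated site from 154 to 146 bases upstream of the start. The RefSeq start used for Socs3 lies inside the longer gene model of the count table, so this window is upstream of the RefSeq transcript and not of that model. The Stat2 window held a response element core on the reverse strand from 222 to 213 bases upstream, and beside it the longer-spaced site from 210 to 201. The Socs1 window held 2 response element cores that overlap each other, from 83 to 74 and from 77 to 68 bases upstream. The fourth member with a match was Stat4, whose second window, at an internal start, held a response element core from 97 to 88 bases upstream. No match was found in the windows of Stat3, Stat5a, Stat5b, Stat6 and Jak2, which says only that these letters are not in those windows. Of 32851 windows of this length over all genes, 7.02% held the gamma-activated site, 5.85% the longer-spaced form and 2.98% the response element core. These shares are per motif and per window. The count of 4 members was taken over all 3 motifs and every window of a member, so it cannot be set against them. A match is a description and not a bound site.

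All 9 genes passed the filter on low counts. Jak2, Stat2, Stat3, Stat6 and Socs3 rose, Stat4 fell, and Stat5a, Stat5b and Socs1 were not called. Thus 5 of 9 were called higher, where 15.2% of all tested genes were, and 1 of 9 lower, where 16.3% were. The 9 genes and the lists below were chosen with earlier results of these data known, so these counts and shares are descriptions only. Only Stat2 and Socs3 were called with a log2 fold change of at least 1, where 3.19% of tested genes were called so. Both LPS libraries lay above both NC libraries for 6 of 9 members, against 32.1% of tested genes, and below them for 1, against 32.0%. The median log2 fold change of the 9 was 0.29, against 0.00225 over all tested genes. DESeq2 called 3 members higher (Jak2, Stat2 and Socs3), against 6.74% of the genes it tested, and 1 lower (Stat4), against 8.61%. Scaled by library size alone, edgeR called 4207 genes higher and 2579 lower, in place of 3169 and 3394, and the same number of members, 5 higher and 1 lower.

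**Figure D1:**
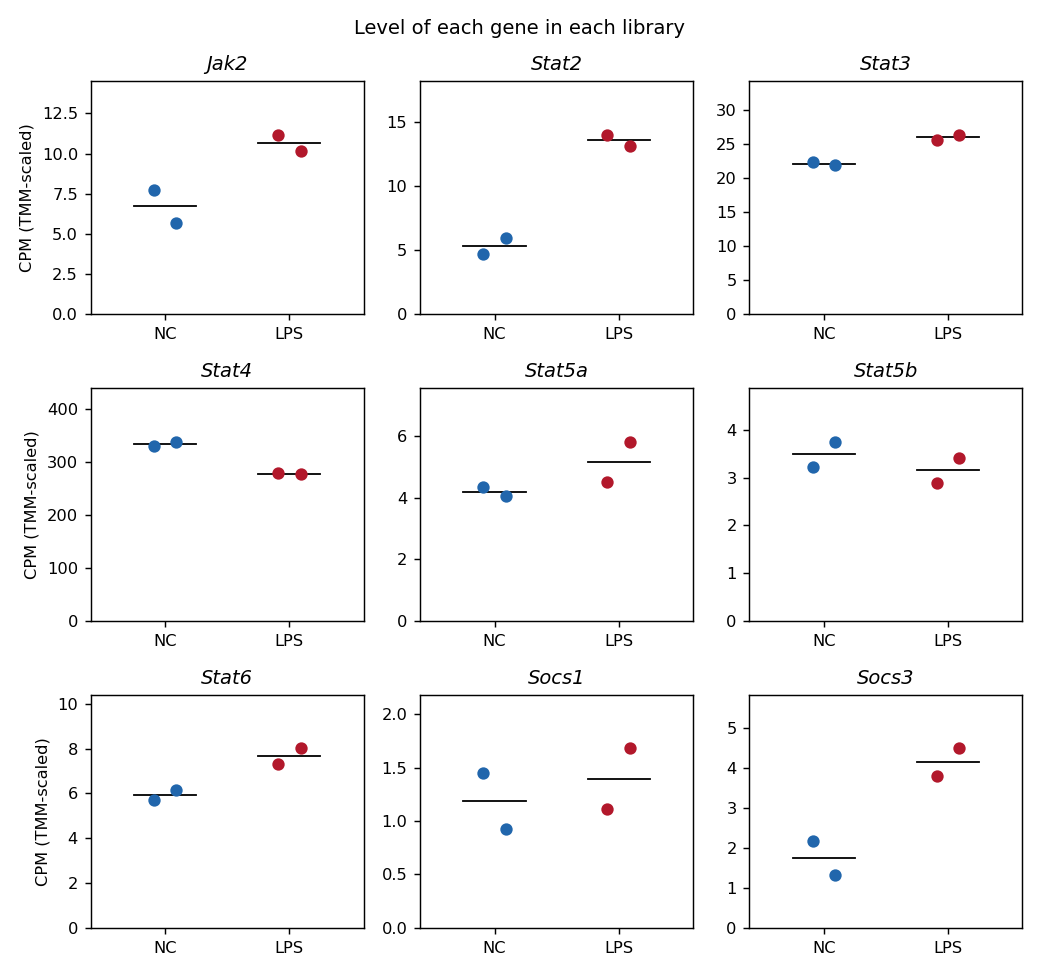
Level of each of the 9 genes in CPM (y axis from 0, TMM-scaled) in the 2 NC and 2 LPS libraries; dots are libraries and bars are group means. The LPS dots lie above the NC dots for Jak2, Stat2, Stat3, Stat5a, Stat6 and Socs3 and below them for Stat4, and the groups overlap for Stat5b and Socs1.

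Stat4 was by far the most abundant of the set. Per kilobase of gene length it stood at 86.1 ± 1.62 CPM per kilobase in the NC columns and 71.6 ± 0.453 in the LPS columns (SD, n = 2 per group). The next most abundant in the NC columns was Stat3, at 2.32 ± 0.0354 CPM per kilobase. Stat6, Jak2 and Stat2 followed at 1.35, 1.33 and 1.21 CPM per kilobase, and each overlapped its neighbour in that order. Socs1, at 0.975 ± 0.306, overlapped Stat2 above it. Stat5b, Socs3 and Stat5a closed the order at 0.630, 0.605 and 0.589 CPM per kilobase, again with overlapping ranges. In the LPS columns Stat2 was second, at 3.09 ± 0.135 CPM per kilobase, and lay above Stat3 at 2.73 ± 0.0562 in both libraries. Socs3, which was eighth of the 9 in the NC columns, was sixth in the LPS columns at 1.43 ± 0.165 CPM per kilobase, with a range that overlapped that of Socs1. Of the summed per-length level of the 6 STAT genes, Stat4 made up 93.5% and 93.3% in the NC columns and 89.2% and 88.8% in the LPS columns.

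**Figure D2:**
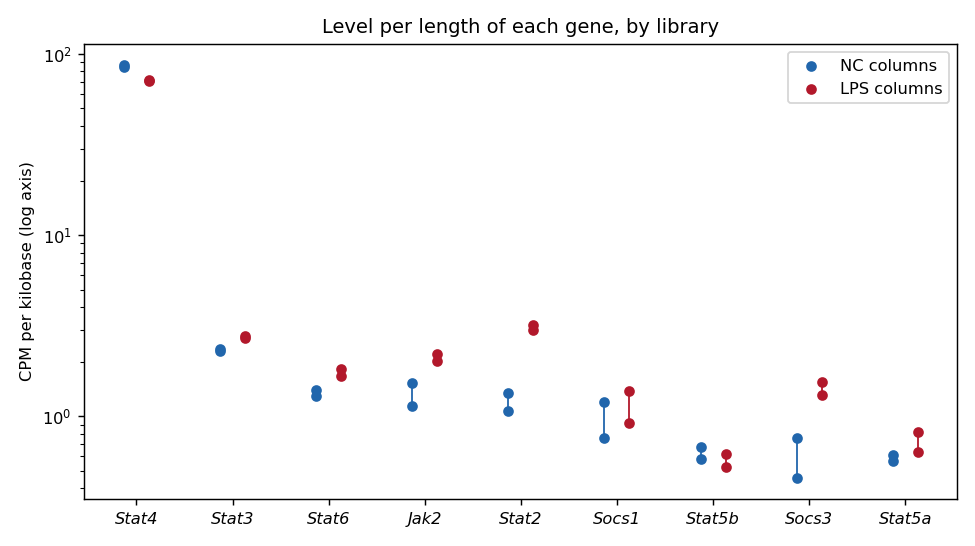
CPM per kilobase of gene length on a log axis for the 9 genes, ordered by their NC mean; dots are libraries, joined within a group. Stat4 lies far above the rest, and Stat2 and Socs3 show the widest step from the NC to the LPS columns.

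Jak2 (chr19:29251828-29313080, plus strand, mm10) encodes the kinase used by the receptors for growth hormone, prolactin, erythropoietin, interferon-gamma and the IL-6 family. It was at 11.2 and 10.1 CPM in the LPS columns and at 7.73 and 5.70 CPM in the NC columns. Both LPS libraries were high, and the NC libraries differed from each other by more than the LPS libraries did. The log2 fold change was 0.66 ± 0.13 (SE; edgeR adjusted p = 0.000208), and Jak2 was called in all 11 alternatives tried for it.

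Stat2 (chr10:128270576-128292849, plus strand) encodes a STAT of type I interferon signalling. Its level was 14.0 and 13.2 CPM in the LPS columns against 4.73 and 5.95 CPM in the NC columns. The groups stood well apart. The fold was 2.55 (log2 fold change 1.35 ± 0.13, SE; edgeR adjusted p = 1.47e-10), and the log2 value stayed between 1.20 and 1.52 over its 11 alternatives. Stat2 had a larger value than Socs3 (1.23), but not without NC replicate 1 (1.20 against 1.65) or LPS replicate 1 (1.31 against 1.34), and the difference was not tested.

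Stat3 (chr11:100885098-100939540, minus strand) encodes the main STAT of the IL-6 family of cytokines and of the acute-phase response. It was at 25.6 and 26.4 CPM in the LPS columns and at 22.4 and 21.9 CPM in the NC columns. The groups did not overlap, but the step was small, a log2 fold change of 0.23 ± 0.08 (SE; edgeR adjusted p = 0.0316). DESeq2 did not call it (adjusted p = 0.239), nor did edgeR whenever any 1 library was left out (edgeR adjusted p of 0.0639 without LPS replicate 1, 0.138 without LPS replicate 2, 0.0815 without NC replicate 1 and 0.137 without NC replicate 2). Stat3 and Stat5a lie tail to tail on chromosome 11 on opposite strands and share 72 exon bases, and the strand setting of the counting is not given in the sources used here.

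Stat6 (chr10:127642986-127660957, plus strand) encodes the STAT of IL-4 and IL-13 signalling. Its level was 7.30 and 8.01 CPM in the LPS columns against 5.73 and 6.14 CPM in the NC columns, without overlap. Stat6 shares 40 exon bases with Nab2, a gene on the opposite strand that held 1085 to 1472 counts per library against 126 to 144 for Stat6. The log2 fold change of Stat6 was 0.37 ± 0.14 (SE; edgeR adjusted p = 0.0421), just inside the threshold. DESeq2 did not call it (adjusted p = 0.335), nor did edgeR with no filter on low counts (edgeR adjusted p = 0.0538), and without LPS replicate 2, NC replicate 1 or NC replicate 2 (edgeR adjusted p = 0.200, 0.186 and 0.0673).

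Stat5a (chr11:100859351-100885169, plus strand) and its neighbour Stat5b (chr11:100780731-100850724, minus strand) encode near-identical proteins that carry growth hormone and prolactin signals. Stat5a was at 4.51 and 5.82 CPM in the LPS columns and at 4.36 and 4.04 CPM in the NC columns, so that the LPS libraries lay above the NC libraries by a narrow gap. Its log2 fold change of 0.29 had a 95% interval of -0.06 to 0.64 (edgeR adjusted p = 0.205). Stat5b was at 2.89 and 3.42 CPM against 3.23 and 3.75 CPM, with overlapping groups and a log2 fold change of -0.15 (95% interval -0.54 to 0.25; edgeR adjusted p = 0.615). Without 1 library, Stat5a ran from 0.10 (without LPS replicate 2) to 0.47 (without LPS replicate 1) and Stat5b from -0.27 to -0.03 over the same 2 fits. Neither was called, and the interval of Stat5a still holds a change of the size seen for Stat6. In the reference transcripts, 608 of the 50-base stretches are found in both genes, which is 8.21% of those of Stat5a and 11.0% of those of Stat5b, so that part of their reads could be split between them.

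Stat4 (chr1:51987148-52107189, plus strand), the STAT of IL-12 signalling in lymphocytes, was at 278.6 and 276.1 CPM in the LPS columns and at 328.9 and 337.8 CPM in the NC columns. The replicates agreed closely and the groups did not overlap. The log2 fold change was -0.27 ± 0.05 (SE; edgeR adjusted p = 0.000107), a level of 83.2% of the NC columns, called under all 12 alternatives, which range from -0.28 to -0.16. Gm28177, a processed transcript on the same strand, shares 1033 exon bases with Stat4 and holds 21.7% of the 50-base stretches of Stat4. Gm28177 moved the opposite way, at 86.3 and 88.4 CPM in the LPS columns against 74.0 and 74.6 CPM in the NC columns (log2 fold change 0.23 ± 0.06; edgeR adjusted p = 0.00253). When its counts were added to those of Stat4, the fall of Stat4 shrank to -0.16 on the log2 scale (edgeR adjusted p = 0.0137).

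Markers of the haploid germ cells in which Stat4 is known fell in part, where 15.2% of all tested genes were called higher and 16.3% lower. Of 11 elongating spermatid markers, all tested, 8 fell and 0 rose, with a median log2 fold change of -0.29 and a summed level of 18416 and 18138 CPM in the LPS columns against 25312 and 24455 CPM in the NC columns. Of 9 round spermatid markers, 6 fell and 1 rose, with sums of 1886 and 1854 CPM against 1966 and 1972 CPM. The count of 6 was 4 with DESeq2, 3 with library size scaling, 3 without NC replicate 1, and 4 without NC replicate 2 or LPS replicate 2, while that of the elongating spermatid markers stayed between 7 and 9. None of these markers was at 0 counts, and their part in the level of Stat4 was not tested. In bulk tissue, fewer cells of a type and less RNA per cell cannot be told apart. The markers of the lymphocytes in which IL-12 acts through STAT4 were low: 14 markers summed to 7.61 and 7.62 CPM in the LPS columns and 11.8 and 11.1 CPM in the NC columns, 3 of 6 tested fell, 0 rose, and the natural killer cell receptor gene Ncr1 was at 0 in every library. The count of 3 was 1 with DESeq2 and without LPS replicate 1, and 2 without any other 1 of the libraries, with library size scaling or with limma-voom.

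Socs3 (chr11:117966079-117970047, minus strand) encodes the inhibitor of receptors that signal through STAT3. It was at 3.80 and 4.48 CPM in the LPS columns, from 75 and 80 counts, and at 2.18 and 1.32 CPM in the NC columns, from 48 and 27 counts. Both LPS libraries were high, and the NC libraries were spread. The fold was 2.34 (log2 fold change 1.23 ± 0.22, SE; edgeR adjusted p = 4.55e-05). The call held over the 11 alternatives, with log2 values from 0.92 without NC replicate 2 to 1.65 without NC replicate 1. The Socs3 window above holds a gamma-activated site, as do 7.02% of all windows, and the site's part in the rise was not tested.

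Socs1 (chr16:10783808-10785536, minus strand) encodes the inhibitor of JAK kinases in interferon signalling. It was at 1.12 and 1.68 CPM in the LPS columns and at 1.45 and 0.926 CPM in the NC columns, from 19 to 32 counts per library. The groups overlapped, and the log2 fold change of 0.21 had a 95% interval of -0.42 to 0.84 (edgeR adjusted p = 0.659). The interval holds values of either sign, so neither a rise nor a fall of Socs1 was shown by these counts. Its sign turned without LPS replicate 2 (-0.10) and without NC replicate 2 (-0.07). The interval of Socs1 reaches into that of Socs3, and the difference between the 2 was not tested. On the minus strand, the counted and the GENCODE model of Socs1 both start at base 10785536. The counted model ends at 10783808, where that of GENCODE ends at 10782240. The bases between were not counted for Socs1, and the effect on its level was not tested.

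**Figure D3:**
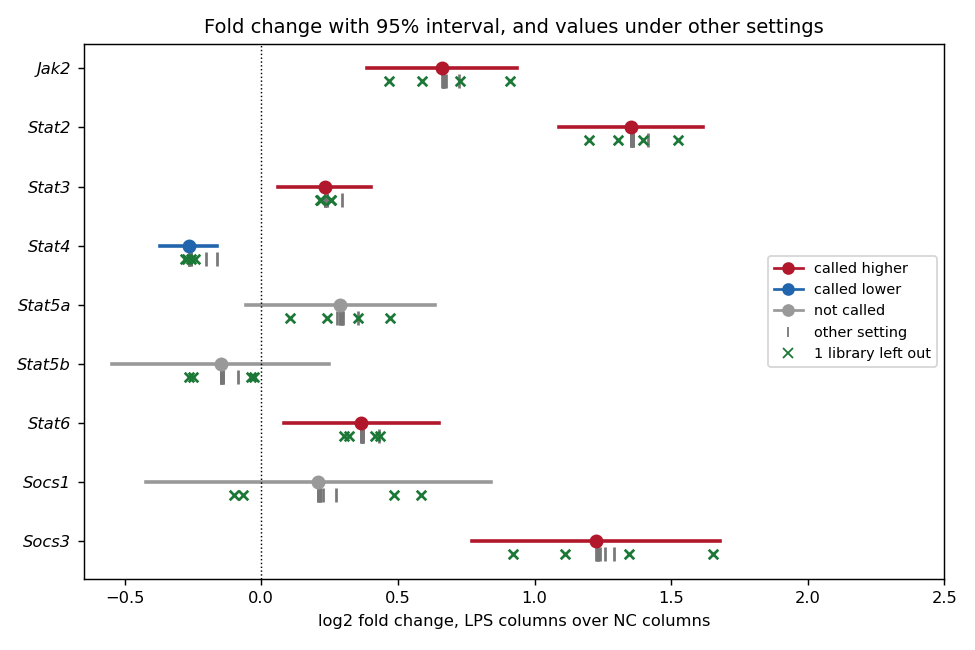
Log2 fold change (x axis) of each gene with its 95% interval; below each, grey ticks are other tools, scalings and filters and green crosses are fits without 1 library. Stat2, Socs3 and Jak2 stay well above 0 in every fit, Stat4 stays below, and the crosses of Socs1 fall on both sides of 0.

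The genes whose centred log2(CPM + 1) profile over the 4 libraries was nearest to Stat3, among 17975 genes outside the lists, were Haus6, Zmym2 and Scaf8, with Euclidean distances of 0.00483, 0.00922 and 0.0120. Nearest to Socs3 were Arnt2, Zfp275 and Gm14332, at distances of 0.132, 0.132 and 0.170. With 4 libraries in 2 groups, genes with a like fold change lie near each other by construction.

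The rest of the pathway was described by 11 short lists, with 64 genes in all, of which 52 were tested, 15 rose, 6 fell and 31 were not called, where 15.2% of all tested genes were called higher and 16.3% lower. Their median log2 fold change was 0.16. Irf9, which encodes the DNA-binding partner of STAT2, was at 6.85 and 7.39 CPM in the LPS columns against 2.41 and 3.31 CPM in the NC columns. Both LPS libraries were high, and the log2 fold change of Irf9, 1.32 ± 0.17 (SE; edgeR adjusted p = 1.62e-07), stood beside the 1.35 of Stat2.

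None of the 3 other JAK kinase genes was called by edgeR, DESeq2 or limma-voom, and 1 had an unadjusted p under 0.05. Jak3, the kinase of the common gamma chain, was at 101.9 and 97.5 CPM in the LPS columns and at 107.8 and 109.0 CPM in the NC columns (log2 fold change -0.12, 95% interval -0.24 to -0.00360, adjusted p = 0.111 in edgeR). Jak1 was at 40.9 and 45.1 CPM against 41.2 and 36.2 CPM (0.15, 95% interval -0.00431 to 0.30), but was called higher with library size scaling (edgeR adjusted p = 0.0336) and without NC replicate 1 (edgeR adjusted p = 0.0375). Among the 4 kinases, only Jak2 was called, and the differences between the kinases were not tested. Tyk2, which serves the interferon receptors, was not called.

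None of the 6 other SOCS box genes was called by edgeR, DESeq2 or limma-voom, and 0 had an unadjusted p under 0.05. Socs7 was the most abundant of them at 170.4 and 172.0 CPM in the LPS columns and 177.0 and 177.7 CPM in the NC columns (log2 fold change -0.05, 95% interval -0.16 to 0.06). Socs5 was at 17.2 and 15.2 CPM against 14.2 and 14.9 CPM (0.16, 95% interval -0.04 to 0.37). The median log2 fold change of the 6 was 0.18. Socs2 rests on its NC libraries, at 11 and 32 counts: its log2 value was 1.54 without NC replicate 2 (edgeR adjusted p = 0.0102) and -0.08 without NC replicate 1.

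The PIAS genes, whose products bind STAT proteins and restrain them in the nucleus, fell in 3 of 4 cases and rose in 0. Pias3 was not called, at a log2 fold change of -0.0131 that ranged from -0.10 without LPS replicate 1 to 0.07 without LPS replicate 2. Pias1 fell from 108.6 ± 2.82 to 82.0 ± 1.88 CPM (SD, n = 2 per group), a log2 fold change of -0.41 ± 0.06 (SE). Pias4 fell from 165.3 and 172.6 CPM to 137.3 and 135.9 CPM, a log2 fold change of -0.31 ± 0.05. Pias2 had a log2 fold change of -0.16 ± 0.06, a call lost with DESeq2 (adjusted p = 0.127), with library size scaling (edgeR adjusted p = 0.225) and without LPS replicate 2, NC replicate 1 or NC replicate 2 (edgeR adjusted p = 0.448, 0.189 and 0.0553). Of the 11 elongating spermatid markers given above 8 fell too, and their part in the fall of the PIAS genes was not tested.

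Of 7 phosphatase and adaptor genes, 3 rose and 1 fell. Ptpn6, which encodes the phosphatase SHP-1 of blood cells, rose from 3.54 and 3.56 CPM in the NC columns to 8.32 and 8.57 CPM in the LPS columns (log2 fold change 1.25 ± 0.15, SE). Ptpn11, which encodes SHP-2, the phosphatase recruited by gp130, rose by 0.43 ± 0.08. Sh2b1, an adaptor that enhances JAK2, had a log2 fold change of 0.21 ± 0.07, and Sh2b3, which restrains JAK2, one of -0.21 ± 0.07. Both small calls were lost with DESeq2 (adjusted p = 0.104 and 0.144). That of Sh2b1 was also lost without NC replicate 2 (edgeR adjusted p = 0.165), and that of Sh2b3 with library size scaling (edgeR adjusted p = 0.0950) and without LPS replicate 1, NC replicate 1 or NC replicate 2 (edgeR adjusted p = 0.145, 0.0913 and 0.0734).

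Among receptors upstream of Jak2 and Stat3, the gp130 family rose in 4 of 8 tested members and fell in 0. Il6st, the shared chain gp130, was at 21.6 and 21.8 CPM in the LPS columns against 13.5 and 11.6 CPM in the NC columns (log2 fold change 0.79 ± 0.10, SE). Osmr, the oncostatin M receptor chain, rose by 1.21 ± 0.23, while Cntfr and Lifr had log2 fold changes of 0.51 ± 0.14 and 0.43 ± 0.11. The last 2 calls were lost with DESeq2 (adjusted p = 0.136 and 0.0814), that of Cntfr also without NC replicate 1 (edgeR adjusted p = 0.152) and that of Lifr without LPS replicate 2 (edgeR adjusted p = 0.180). The ligands were scarce: 4 of 7 were tested, 0 rose (1, Clcf1, without NC replicate 1; edgeR adjusted p = 0.0479), and Il11 fell from 3.54 and 3.56 CPM to 2.54 and 2.35 CPM (log2 fold change -0.54 ± 0.20; edgeR adjusted p = 0.0404). DESeq2 did not call Il11 (adjusted p = 0.354), nor did edgeR with library size scaling (edgeR adjusted p = 0.0721) and without any 1 of the libraries (edgeR adjusted p of 0.0787 to 0.154). Il6 had 2 counts in 1 LPS library and 0 in the other libraries, so that no difference was detectable at this depth.

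Receptors of the other STAT pathways changed in part. Of 4 tested interferon receptor genes, 1 rose, Ifnar2 of the type I receptor, by 0.62 ± 0.15 on the log2 scale, a call lost with DESeq2 (adjusted p = 0.0686) and without LPS replicate 2 (edgeR adjusted p = 0.129). Ifngr1, of the type II receptor, was not called but was lower without LPS replicate 1 (-0.47; edgeR adjusted p = 0.0149). Of 3 tested IL-10, IL-12 and IL-23 receptor genes, 2 rose, Il10ra by 0.98 ± 0.24 and Il10rb by 0.61 ± 0.17, both lost with DESeq2 (adjusted p = 0.0977 and 0.132). Of 5 tested genes of the common gamma chain and IL-4 group, 1 rose, Il2rg, by 1.28 ± 0.40 from 10 and 8 NC counts. DESeq2 did not call Il2rg (adjusted p = 0.241), nor did edgeR without any 1 of the libraries (edgeR adjusted p of 0.0566 to 0.113). Of 7 tested homodimeric and beta-common receptor genes, which signal through JAK2 and STAT5, 3 rose and 1 fell. Csf2rb rose from 0.318 and 0.682 CPM to 2.94 and 2.63 CPM (log2 fold change 2.48 ± 0.32) and its near-copy Csf2rb2 by 1.48 ± 0.27, 2 genes whose reads may be split. Il3ra rose by 0.53 ± 0.14, lost with DESeq2 (adjusted p = 0.0993). The prolactin receptor gene Prlr fell from 9.63 and 10.3 CPM to 6.19 and 5.54 CPM, a log2 fold change of -0.76 ± 0.13.

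**Figure D4:**
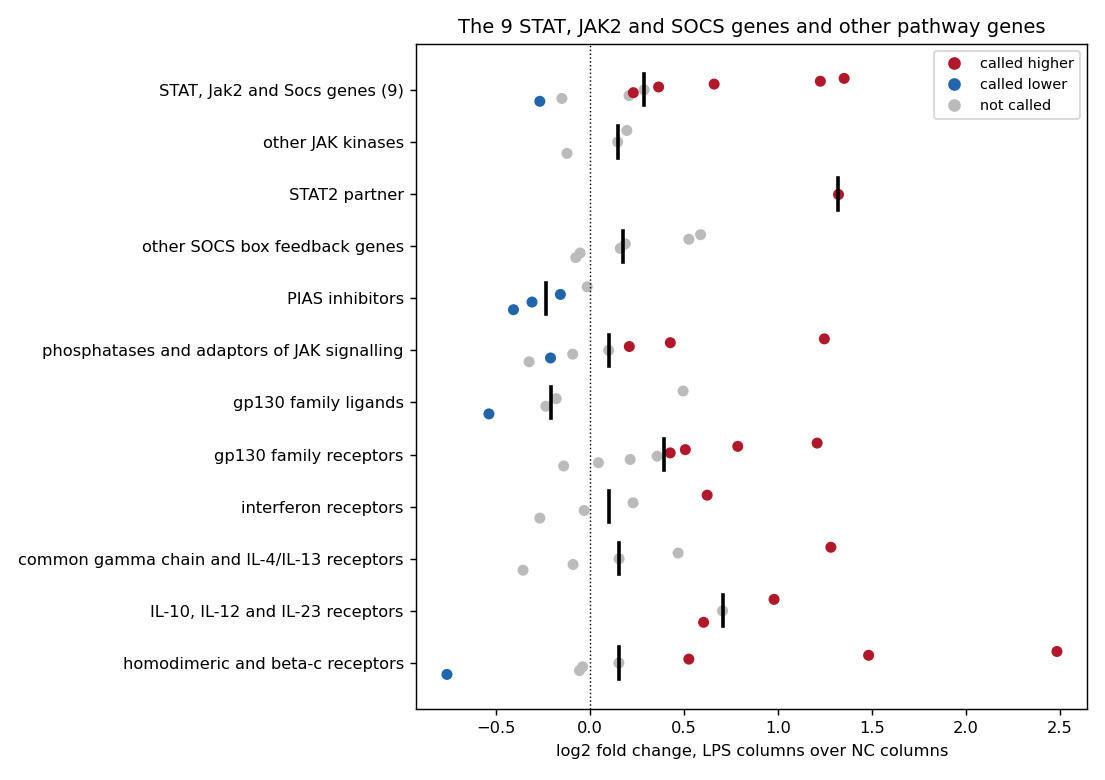
Log2 fold change (x axis) of each tested gene of the 9-gene set and of the 11 other pathway lists; red was called higher, blue lower, grey not called, black bars are list medians and the dotted line is the median of all tested genes. Irf9 sits with Stat2 and Socs3 above 1, as do Csf2rb, Csf2rb2, Il2rg, Ptpn6 and Osmr. The 3 PIAS genes called lower sit below 0.

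Genes known as STAT targets are set beside the level of their own STAT gene. Stat2 had the largest change of the 6 STAT members, and of 12 tested interferon target genes 12 rose and 0 fell, with a median log2 fold change of 2.68. Among them Irf7, which drives interferon production, rose by 4.28 ± 0.18, Gbp2, a GTPase gene, by 3.54 ± 0.21 and the chemokine gene Cxcl9 by 3.32 ± 0.33. For Ifit1 the LPS libraries held 13 and 14 counts and the NC libraries 1 and 2, which is 10.2-fold per library depth (95% counting interval 3.13 to 52.5). DESeq2 called 8 of the 12. Over all tested genes, edgeR called 15.2% higher and DESeq2 6.74%. Irf9, given above, is among the 12.

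Stat3 itself moved by 0.23, and of 27 tested STAT3 targets 19 rose, 0 fell and 8 were not called, with a median of 1.21. DESeq2 called 15 of them higher and 0 lower. Il6st and Osmr, given above as gp130 family receptors, are also in this list. The acute-phase gene Hp, which encodes haptoglobin, was at 3.04 and 3.86 CPM against 0.318 and 0.195 CPM (log2 fold change 3.70 ± 0.34). Timp1, an inhibitor of matrix proteases, rose by 3.54 ± 0.15 and Serpina3n went from 0.954 and 1.80 CPM to 40.8 and 47.2 CPM. Saa3, a serum amyloid gene, rose by 7.70 ± 0.16. The fit of Saa3 rests on 2 and 22 NC counts, and its log2 value ranged from 6.79 without NC replicate 1 to 10.25 without NC replicate 2. Many genes of this list also answer to NF-kB, so that the list does not single out STAT3.

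Of 10 tested STAT5 targets, 1 rose and 2 fell, with a median of 0.14, beside 2 Stat5 genes that were not called. The call higher was Lifr, given above. Prlr and Igfals, a carrier of insulin-like growth factors, were the calls lower, and Igfals, at -1.87 ± 0.51, rests on 6 and 3 counts in the LPS libraries and was lost with DESeq2 (adjusted p = 0.147) and without LPS replicate 2 or NC replicate 1 (edgeR adjusted p = 0.0605 and 0.343). Cish and Socs2, the feedback targets of STAT5, had log2 fold changes of 0.59 and 0.53 and were not called (edgeR adjusted p = 0.162 and 0.267).

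Stat6 was called higher by edgeR but not by DESeq2 (adjusted p = 0.335). Of 6 tested STAT6 targets 0 rose and 2 fell, with a median of -0.59, and DESeq2 called 1 lower. Among all tested genes, edgeR called 15.2% higher and 16.3% lower, and DESeq2 6.74% and 8.61%. Ccl24, a chemokine of alternatively activated macrophages, had 19 and 12 counts in the NC libraries and 0 in both LPS libraries; with 3 counts over the LPS group as the floor it was at least 9.13-fold lower. The mannose receptor gene Mrc1 fell from 19.1 and 20.9 CPM to 12.4 and 12.7 CPM, a log2 fold change of -0.67 ± 0.10. Of 8 STAT4 targets only 2 could be tested, Furin at 0.23 and Il12rb2 at 0.71 on the log2 scale, neither called, and Ifng was at 0 counts in every library.

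**Figure D5:**
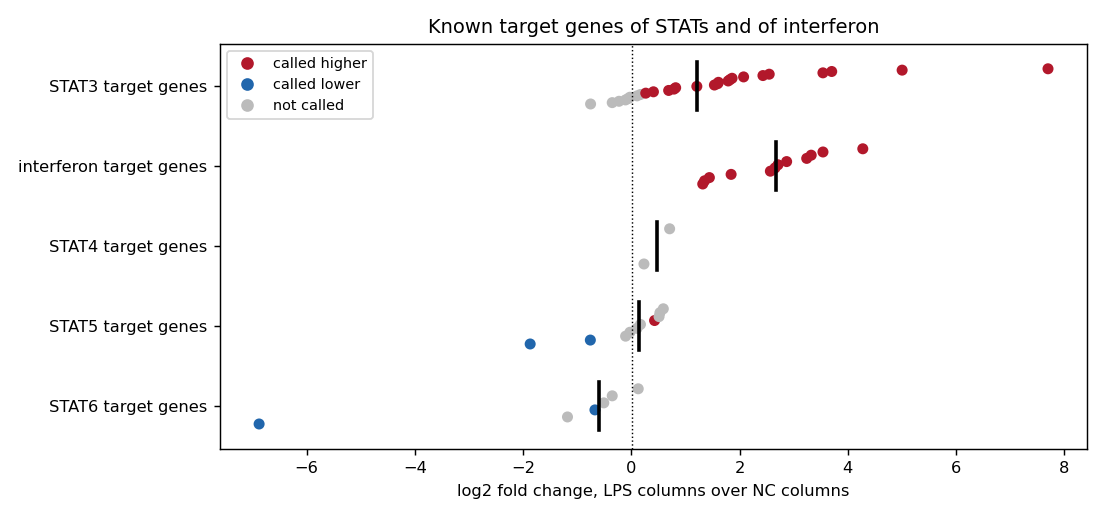
Log2 fold change (x axis) of each tested target gene, by the STAT or the interferon response it is known for; colours, bars and dotted line as in the plot of the pathway lists. All points of the interferon target list are red and above 1, while the STAT6 list has its median below 0; the leftmost point is Ccl24, whose fitted value against 0 counts is no measured fold.

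Markers of the cells that could carry these genes are given beside them. Their counts are read against all tested genes, of which edgeR called 15.2% higher and 16.3% lower, and DESeq2 6.74% and 8.61%. Counts near those shares, as for the spermatocyte markers, are no result about the cell type. Of 14 tested macrophage and monocyte markers, 6 rose and 5 fell, and the 15 markers summed to 379.3 and 392.6 CPM in the LPS columns against 384.4 and 411.0 CPM in the NC columns. Of 3 tested neutrophil markers 2 rose (1 with DESeq2, and 1 without LPS replicate 1, LPS replicate 2 or NC replicate 1) and 0 fell, and the 10 markers summed to 4.16 and 4.70 CPM against at most 1.80 CPM, with Ly6g and Camp at 0 in both LPS libraries and S100a9 and Ngp at 0 in both NC libraries. Ly6g, not tested, had 10 counts over the NC libraries, and with no filter on low counts 1 neutrophil marker was called lower. Sertoli cell markers rose in 6 of 12 and fell in 0 (949 to 972 CPM in the LPS columns, 693 to 700 CPM in the NC columns), and peritubular myoid markers rose in 4 of 6 and fell in 0 (375.2 to 376.7 against 258.5 to 280.8 CPM). Endothelial markers rose in 3 of 7 tested and fell in 1 (27.7 to 32.2 against 25.2 to 31.7 CPM); the 3 were 1 with DESeq2 and without LPS replicate 2, and the 1 was 0 with DESeq2 and without NC replicate 1. Of 9 Leydig cell markers 5 fell and 2 rose, 1 without LPS replicate 2 (482.7 to 558.6 against 886.9 to 930.3 CPM). Spermatogonia markers rose in 4 of 8 tested and fell in 0 (131.0 to 140.9 against 99.5 to 107.6 CPM), and the 4 were 1 with DESeq2 and without NC replicate 1 and 2 without LPS replicate 2. Of 10 spermatocyte markers 2 rose and 2 fell (3044 to 3184 against 3118 to 3255 CPM), and those lower were 1 with DESeq2 and without LPS replicate 2. Which of these cells carried the rises of Jak2, Stat2, Stat3, Stat6 and Socs3 was not tested.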

How the data were processed

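RNA was sequenced from 4 libraries of testis, 2 per group, with total RNA extracted by TRIzol and a stranded mRNA kit, per the labels' protocols. The table the authors deposited holds raw counts for every gene under the leading columns of a featureCounts table, per the file headers. The submitters' processing notes name STAR 2.5.3a, Trimmomatic 0.36, Subread 1.5.1 with featureCounts, DESeq and edgeR 3.12.1, on mm10, without roles. Annotation release, strand setting and any molecular identifiers: not given in the sources used here. The authors' table also gives each gene's length in bases as another column, used for levels per kilobase.

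Low counts were removed by filterByExpr (edgeR 4.0.16), libraries scaled by TMM and compared with edgeR's quasi-likelihood test (2 residual and about 34.0 prior degrees of freedom), Benjamini-Hochberg adjusted over all tested genes. The SE is the one implied by the F statistic. The fit was tested on simulated data. Alternatives were DESeq2 1.42.0, limma 3.58.1 (voom), other scalings and filters, each library left out, and a replicate block. Replicates of each group differed by more than sampling noise. Gene models and overlaps come from GENCODE mouse release 21 and promoters from RefSeq, both of the build of the files.

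One gene of the pathway is not reported here. The 9 genes and all lists were chosen with earlier results of these data known. Named genes are all 9 members and, per pathway list, up to 4 called genes with the largest absolute log2 fold change, or the 2 most abundant where none was called; Tyk2, Il6, Ifng, Pias3, Ifngr1, Clcf1, Cish, Socs2 and Gm28177 were named after their values were seen. The lists, besides those of the pathway and of STAT and interferon targets, hold markers of macrophages, neutrophils, lymphocytes, endothelium, Leydig, Sertoli, peritubular, spermatogonial, spermatocyte and spermatid cells.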

Additional observations from a re-analysis of the deposited data

How the results depend on the processing

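Of the 9 genes, Stat2, Jak2 and Socs3 were called higher and Stat4 lower under every alternative tried. With DESeq2, Stat3 (log2 fold change 0.23) and Stat6 (0.37) were no longer called, leaving 3 members called higher, and the calls over all genes were 1372 higher and 1752 lower in place of 3169 and 3394. With no filter on low counts Stat6 (0.37) was not called. Leaving out each library in turn gave Stat3 from 0.21 to 0.25, Stat6 from 0.30 to 0.43, Stat5a from 0.10 to 0.47, Stat5b from -0.27 to -0.03, Socs1 from -0.10 to 0.59, with a turned sign without LPS replicate 2 (-0.10) and NC replicate 2 (-0.07), and 3 to 4 members called higher; the cause was not tested, beyond the smaller number of libraries. Fits without 1 library assume that the lone library of its group varies like the others. With the replicate number as a block, 5 members were called higher and 1 lower, and 3376 genes higher and 3594 lower. Same-numbered libraries deviated from their group means with a correlation of 0.0155, so the numbers were not taken to pair them, and the block changed no call among the 9. The alternative that adds the counts of Gm28177 to Stat4 was chosen after seeing the data. Low counts limit Socs1, with 19 to 32 counts per library and a counted model shorter than that of GENCODE, and the cytokine ligands.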

Other observations

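Over all tested genes with a RefSeq promoter window, 13266 in number, 16.4% were called higher and 16.9% lower in the LPS columns. Among the 394 with the interferon response element core GAAANNGAAA in the 250 upstream bases, as in Stat2, Socs1 and Stat4, 24.1% were called higher and 14.7% lower. Among the 999 with the gamma-activated site TTCNNNGAA, as in Socs3, 15.8% were called higher and 19.6% lower, and among the 768 with TTCNNNNGAA 17.6% and 20.1%. These shares are descriptions and were not tested.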
